A study of Mus musculus with 18 samples.

Results

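The comparison described here is that of Aire knockout (KO) with wild-type (WT) medullary thymic epithelial cells of the lo gate (mTEClo), 3 libraries of each genotype out of the 18 libraries of the series. Its members are the 16537 of 23063 genes with an RPKM (a transcript level corrected for gene length and library depth) reaching 0.1 in 3 or more of the 6 libraries. Both groups were sorted by flow cytometry from digested, stroma-enriched thymi of mice aged 6 to 8 weeks. The KO mice carried a targeted Aire allele, and the strain label of every sample, WT included, is B6.129S2-Airetm1.1Doi/J. The labels name neither the surface protein behind the lo and hi gates nor the animals behind each library. The p-values therefore measure only the spread between libraries, which for single genes was estimated over all 18 libraries of the series. The other 12 libraries are mTEC of the hi gate (mTEChi) and cortical thymic epithelial cells (cTEC) of both genotypes, with 3 libraries in each group.

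Medullary thymic epithelial cells transcribe genes that are otherwise restricted to single peripheral tissues, which lets developing T cells meet those antigens in the thymus. Aire is a nuclear regulator that mature medullary cells need for much of this transcription. Medullary cells with low maturation markers are mixed: they include precursors, chemokine-producing junctional cells, and cells that have passed the Aire stage and resemble tuft cells, keratinocytes or other peripheral cell types.

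Depth, as aligned bases on genes, ran from 4.54 to 18.1 Gb in WT and from 6.48 to 9.43 Gb in KO mTEClo. Epithelial markers were high in all 6 libraries, with Epcam between 292 and 345 RPKM, and the cortical gene Psmb11 was at 2.12 RPKM or less. Xist was higher and the Y-linked Ddx3y lower in the libraries numbered 2 of both genotypes than in the other 4 libraries. Genes with at least 0.1 RPKM numbered 16374 ± 66.3 (SD, n = 3) in WT and 16358 ± 116 (SD, n = 3) in KO, a difference of -16.3 (two-sided exact permutation test, p = 0.8; the smallest p that 3 against 3 libraries allow is 0.1). The difference was 106 genes at a threshold of 1 RPKM, with p = 0.3 in the same exact test.

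Aire was low in mTEClo and was not lower in the KO libraries. It stood at 7.75, 9.13 and 12.8 RPKM in WT mTEClo replicates 1 to 3 and at 33.1, 21.5 and 16.3 RPKM in KO. Every KO library was above every WT library, and WT mTEChi held 677 ± 17.9 RPKM (SD, n = 3). The log2 difference of 1.22 (SE 0.425) just missed the threshold, with a limma adjusted p of 0.056. It passed with 1 RPKM added (1.14), with quantile normalization (1.24), with library weights (1.26), in the fit of the mTEClo libraries alone (1.22) and when KO cTEC replicate 1 was left out of the fit (1.22), an alternative chosen after seeing the data. The deposited value covers the whole gene, so it does not check the deletion. Dnmt3l, a cofactor of DNA methyltransferases that lies beside Aire on the opposite strand, rose from 0.405, 0.373 and 0.555 RPKM to 5.2, 4.8 and 3.44 RPKM (log2 3.07, limma adjusted p = 5e-05). The annotated spans of Aire and Dnmt3l overlap by 1664 bases (GENCODE M21, chr10:78041947-78043610 in GRCm38), and reads from that stretch cannot be assigned to a strand with these tables.

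KO mTEClo differed from WT in both directions. Called genes, those with a Benjamini-Hochberg adjusted p under 0.05 in limma on log2(RPKM + 0.1), numbered 1609 higher and 1606 lower in KO, which is 9.73% and 9.71% of the genes tested and 19.4% together. Rises were larger than falls: the median log2 change was 0.80 among called rises and -0.56 among called falls, 602 rises and 309 falls were of 2-fold or more, and 66 rises and 51 falls were of 4-fold or more. The median over all genes tested was -0.04. Centring each library on housekeeping genes moved that median to -0.17 and the split to 1085 higher and 3934 lower. Before such centring 4 of the 16 housekeeping genes were themselves called higher and 0 lower, with a median log2 change of 0.16. That reference was thus not level between the genotypes. The counts of called genes dropped to 816 higher and 764 lower without WT replicate 3, the deepest library, and to 963 and 920 without WT replicate 1. They were 1003 and 998 without KO replicate 2, and 1082 and 1011 without KO replicate 1. The fit of the mTEClo libraries alone, which takes the spread from these libraries only, gave 2086 higher and 2316 lower.

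The largest rises joined a mitochondrial gene, an inhibitory receptor of T cells, odorant receptors, chitinase-like proteins and the muscle creatine kinase Ckm. Ndufa4l2, a mitochondrial subunit paralog induced in low oxygen, was at 0.391, 0.243 and 0.341 RPKM in WT and at 4.37, 4.93 and 5.52 RPKM in KO. The KO libraries lay within a narrow range far above WT (log2 3.58, SE 0.248, limma adjusted p = 1.3e-06). Ctla4, the inhibitory receptor of the CD28 family, was at 0.444, 0.303 and 0.46 RPKM in WT and at 7.43, 4.06 and 3.89 RPKM in KO (log2 3.33, limma adjusted p = 8e-05). Ctla4 also rose in KO mTEChi (log2 3.83), and the 2 effects were not called different (difference -0.50, limma adjusted p = 0.5). The odorant receptor genes Olfr960 and Olfr148, which are close together on chromosome 9, rose by log2 3.37 and 3.07. Olfr960 read 0.334, 0.244 and 0.0186 RPKM in WT against 2.34, 2.06 and 3.61 RPKM in KO. Crisp3 encodes a secreted cysteine-rich protein of salivary gland and the male tract. It rose from 0.156, 0.0503 and 0.149 RPKM to 0.713, 1.92 and 2.49 RPKM. In KO mTEChi it fell by 5.20 on the log2 scale, and in KO cTEC it rose by log2 2.90. Sprr4, a cornified envelope precursor, rose from 1.55, 5.03 and 1.41 RPKM to 23.6, 13.3 and 13.4 RPKM (log2 2.80, limma adjusted p = 0.016). Leaving out WT replicate 1, leaving out WT replicate 3 and leaving out KO replicate 1 each ended the Sprr4 call, at log2 2.54, 2.48 and 2.52. AF067061, an uncharacterised transcript, rose by log2 3.21.

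**Figure D1:**
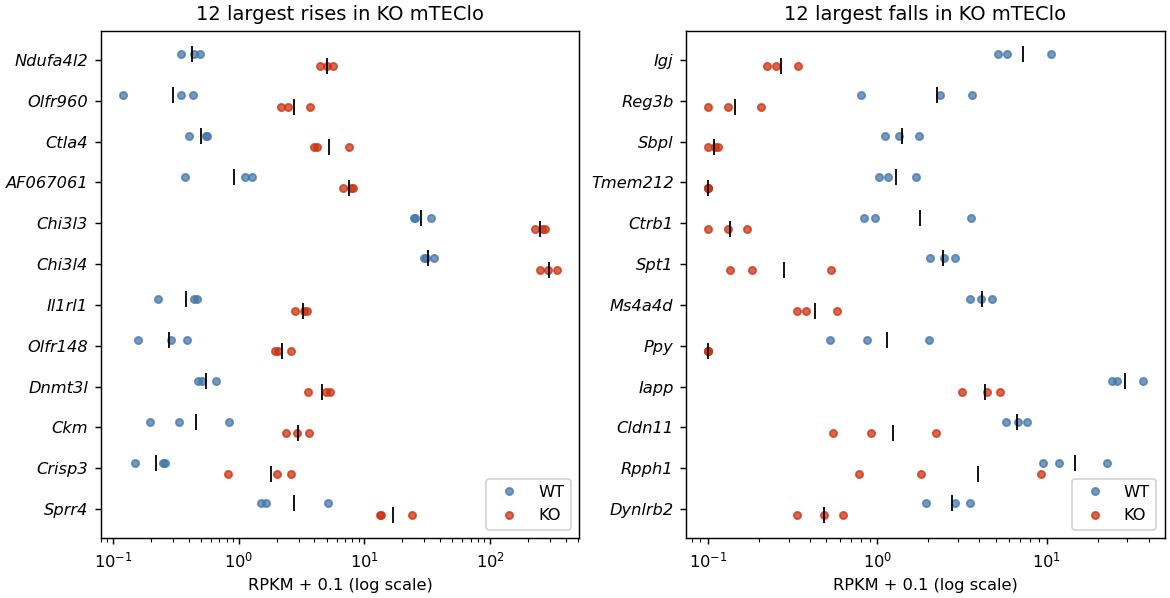
RPKM + 0.1 on a log axis for the 12 called genes that rose most and the 12 that fell most in KO mTEClo; each point is 1 library (blue WT, red KO) and the black tick is the group mean. Only genes without overlap between the genotypes could be drawn. Tmem212 and Ppy are listed at 0 in all 3 KO libraries. Of the 16537 genes tested, called or not, 3225 had all KO libraries above WT and 4157 had all below.

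Chitinase-like proteins, secreted relatives of chitinases that bind sugars and accompany type 2 immunity, held 2 of the largest rises, Chi3l3 and Chi3l4. Of 8 tested members 4 rose and 1 fell, with a median log2 change of 0.46 against -0.04 for all genes. Chi3l3 (Chil3, Ym1) was at 33.5, 24.8 and 25.2 RPKM in WT and at 226, 257 and 272 RPKM in KO. Chi3l4 (Chil4, Ym2) was at 35.9, 29.9 and 30.6 RPKM in WT and at 250, 286 and 343 RPKM in KO. Both genes were tight within a genotype and far apart between genotypes, with log2 changes of 3.18 each and limma adjusted p-values of 1.7e-06 for Chi3l3 and 2e-07 for Chi3l4. In KO mTEChi both fell instead, Chi3l3 by 1.24 and Chi3l4 by 0.72 on the log2 scale. In KO cTEC both rose, Chi3l3 by log2 3.07 and Chi3l4 by log2 4.07, and neither effect was called different from that in mTEClo. The true chitinase Chia, next to them on chromosome 3, rose by log2 0.98 from 2.5, 3.23 and 2.84 RPKM to 5.49, 5.56 and 6.06 RPKM. Chi3l1 was not called, at 36.2, 51 and 31.7 RPKM in WT and 59.7, 53.9 and 45.7 RPKM in KO.

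The 2 genes are close copies. How reads that match both were assigned is not given in the sources used here, so their single values are uncertain. Their transcripts match at 94.4% of 1538 aligned bases, and 17.9% of the 50-base stretches of the Chil3 transcript also occur in Chil4 transcripts, while 0% occur in those of Chia1, as RefSeq now names Chia. The full 250 bases upstream of their start sites (RefSeq, GRCm38.p6, minus strand) match at 91% of 221 aligned bases. They are shown because the 2 genes moved together, with any base of an annotated exon left off, which is 28 bases for Chi3l4. Capitals mark their longest shared run of 44 bases. The bases shown lie at chr3:106167565-106167814 for Chi3l3 and at chr3:106219508-106219729 for Chi3l4.
Chi3l3: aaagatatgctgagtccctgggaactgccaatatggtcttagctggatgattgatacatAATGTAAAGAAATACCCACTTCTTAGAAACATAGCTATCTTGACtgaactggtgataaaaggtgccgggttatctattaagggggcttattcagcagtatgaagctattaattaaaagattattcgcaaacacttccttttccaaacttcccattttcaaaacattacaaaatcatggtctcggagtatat
Chi3l4: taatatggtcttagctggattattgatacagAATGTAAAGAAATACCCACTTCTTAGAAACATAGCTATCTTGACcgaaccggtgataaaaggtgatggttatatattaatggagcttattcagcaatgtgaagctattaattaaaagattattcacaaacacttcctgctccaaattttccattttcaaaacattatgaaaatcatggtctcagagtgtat

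Type 2 cytokines and their receptors also held several rises, with 6 of 14 tested members higher and 0 lower and a median log2 change of 0.71. Il1rl1, the receptor of interleukin 33, went from 0.339, 0.368 and 0.129 RPKM in WT to 2.71, 3.22 and 3.41 RPKM in KO (log2 3.15, limma adjusted p = 4.6e-05). Il33 itself, an alarmin of barrier epithelium, rose from 3.39, 3.54 and 3.37 RPKM to 5.71, 5.96 and 6.95 RPKM. Il13, the effector cytokine, rose from 0.859, 0.937 and 1.05 RPKM to 6.82, 4.22 and 2.31 RPKM. The KO libraries differed among themselves for Il13 more than for the other 2 genes, and all 3 lay above WT. Tslp, Areg and Il25 complete the rises, with Tslp lost without WT replicate 3 and Areg without WT replicate 2 or 3 or KO replicate 1. Il13 rose by log2 1.99 in KO mTEClo and 1.94 in KO mTEChi, whereas Il33 fell there by 3.38 on the log2 scale and its effects differed between the gates (4.21, limma adjusted p = 7.3e-08).

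Genes of tuft-like mTEC, chemosensory cells that carry a bitter-taste signalling cascade and make interleukin 25, were higher in KO mTEClo. Of 20 tested members 11 rose and 0 fell, all 20 log2 changes were above 0, and their median was 1.16. Il25 was at 16, 25.4 and 14.3 RPKM in WT and at 51.6, 68.2 and 53.7 RPKM in KO (log2 1.67, SE 0.366, limma adjusted p = 0.0055). Pou2f3, the transcription factor that tuft cells require, was at 30.4, 47.6 and 21.3 RPKM in WT and at 65.9, 73.4 and 66.1 RPKM in KO (log2 1.12, limma adjusted p = 0.024). The enzymes and signal proteins Ptgs1 (log2 1.42), Alox5ap (1.38) and Gng13 (1.33) rose as well, Gng13 with an adjusted p just under the threshold. The calls of Pou2f3, Alox5ap and Gng13 were lost on leaving out any library but WT replicate 2. Avil, the actin-bundling advillin of tuft cells, was not called at 177, 265 and 117 RPKM in WT and 378, 426 and 406 RPKM in KO (limma adjusted p = 0.054).

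The WT libraries were far apart for these genes and the KO libraries were not. The summed RPKM of the 20 tuft members was 1186, 1810 and 798.9 in WT replicates 1 to 3 and 2575, 2887 and 2787 in KO. Each KO library was above each WT library, and within WT the order was replicate 2, then 1, then 3. Kit, a receptor tyrosine kinase, had the same WT order (16.9, 24.8 and 11.6 RPKM, against 36.7, 41.3 and 38.7 in KO). Tek, Mag and Cd79b had it too, and all of them rose. The Kit and Tek calls were lost without WT replicate 1 or 3 or KO replicate 2, and that of Cd79b (log2 1.33, and 1.10 without it) without WT replicate 3. Fewer cells of a type and less RNA per cell cannot be told apart in such bulk samples. The number of tuft members called higher was 3 without WT replicate 3, 5 without WT replicate 1 or KO replicate 2 or 3, 6 without KO replicate 1, 16 without WT replicate 2, 17 without KO cTEC replicate 1 and 19 in the fit of the mTEClo libraries alone. With the replicate number as a block it was 5.

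**Figure D2:**
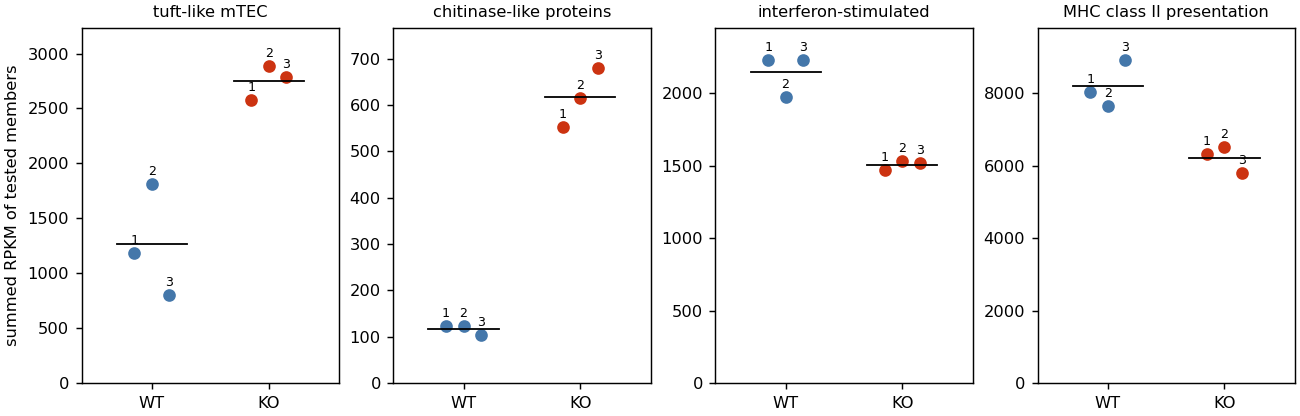
Summed RPKM of the tested members of 4 gene lists in each mTEClo library, with the axis from 0; the points are the 3 libraries of a genotype, numbered by replicate, and the line is their mean. KO lies above WT for the tuft-like and chitinase-like lists and below it for the interferon-stimulated and MHC class II lists, and the WT libraries spread from 798.9 to 1810 for the tuft-like list.

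Striated muscle genes are a feature of thymic myoid or muscle-like epithelial cells. Of 21 tested members 10 rose and 1 fell, 17 log2 changes were above 0 and 4 below, and the median was 0.98. The summed RPKM of the list was 72.56, 71.12 and 79.01 in WT and 113.2, 101.1 and 73.47 in KO, so the genotypes overlapped through KO replicate 3. Myl1, a fast myosin light chain, was at 1.39, 1.63 and 0.932 RPKM in WT and at 9.79, 9.87 and 6.9 RPKM in KO (log2 2.67, limma adjusted p = 6.6e-05). Tnnt3, the fast troponin T, rose from 0.0948, 0.117 and 0.127 RPKM to 1.86, 1.49 and 0.732 RPKM (log2 2.69). Ckm, the muscle creatine kinase, rose from 0.0977, 0.73 and 0.236 RPKM to 3.5, 2.83 and 2.29 RPKM (log2 2.94). No KO library of these 3 genes overlapped WT, which for Ckm was a condition of being named among the largest rises. The acetylcholine receptor subunits Chrnd and Chrng passed the filter on low values through the KO libraries alone, so they could only rise. Chrnd read 0.0311, 0.0466 and 0.0772 RPKM in WT and 0.71, 0.643 and 0.632 RPKM in KO. The myogenic regulator Myog was among the rises and Mef2c was the fall. Actn3, the most abundant of the members that were not called, read 30.1, 26.5 and 35.9 RPKM in WT and 29.2, 24.7 and 18.5 RPKM in KO. In KO mTEChi 14 of the 21 fell and 1 rose, and 17 had a genotype effect that differed between the gates.

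Keratinised genes were split. Of 27 tested members of this list, which follows the cornifying cells of Hassall's corpuscles, 7 rose and 2 fell with a median log2 change of 0.48. Sprr1a, a cornified envelope precursor, rose from 60.9, 79.5 and 74.6 RPKM to 198, 175 and 156 RPKM (log2 1.30, limma adjusted p = 0.00015). Krt1 and Krt10, the keratin pair of suprabasal epidermis, fell: Krt1 went from 4.73, 11.8 and 5.4 RPKM to 2, 2.28 and 1.35 RPKM (log2 -1.82) and Krt10 fell by 0.87 on the log2 scale. The count of rises was 1 without WT replicate 1, 2 without KO replicate 1, 3 without WT replicate 3 and 4 without KO replicate 2. The genes in the list differ in tissue layer, and 21 of the 27 fell in KO mTEChi.

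Genes of the oxygen-sensing pathway and its targets formed another group of rises, 8 of 18 tested and 0 falls, with a median of 0.34. Hk2, a hexokinase, rose from 1.31, 1.06 and 1.28 RPKM to 3.3, 3.05 and 3.42 RPKM (log2 1.35, SE 0.12, limma adjusted p = 1.3e-05). Slc2a1, the main glucose transporter of many cells, rose from 24.7, 29.1 and 24.1 RPKM to 47, 48.6 and 55.2 RPKM (log2 0.95). Libraries of a genotype were close together for both genes. Ndufa4l2, Vegfa, Bnip3, Egln3, Ankrd37 and Epas1 complete the rises, while Hif1a, Ldha and Pgk1 were not called. Hk2 was also called higher in KO mTEChi (log2 1.27), and its effects were not called different (0.08, limma adjusted p = 0.75). Ndufa4l2 was not called there (log2 0.11), and its effects differed by log2 3.46 (limma adjusted p = 2.7e-06).

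The largest fall was that of Igj (Jchain), the chain that joins polymeric immunoglobulins. It went from 5.76, 5.04 and 10.5 RPKM in WT to 0.123, 0.238 and 0.152 RPKM in KO (log2 -4.68, SE 0.716, limma adjusted p = 0.00052). The B cell gene Ms4a1 was too low to be tested in these libraries. Genes of exocrine glands, islets and cilia followed. Spt1, a salivary protein often assayed as an Aire target, fell from 2.38, 2.76 and 1.94 RPKM to 0.0824, 0.431 and 0.0341 RPKM. Iapp, the islet amyloid peptide hormone, fell from 24.4, 36.9 and 26 RPKM to 3.07, 5.23 and 4.36 RPKM (log2 -2.76, limma adjusted p = 0.0032). Reg3b, an antimicrobial lectin, fell from 0.703, 3.53 and 2.26 RPKM to 0.104, 0.0317 and 0 RPKM, and its call was lost without WT replicate 3 (-3.62). Tmem212, a gene of ciliated cells, read 1.58, 0.916 and 1.06 RPKM in WT and is listed at 0 in all 3 KO libraries. Ppy, the pancreatic polypeptide, read 0.428, 1.91 and 0.763 RPKM in WT and is likewise listed at 0 in KO. Sbpl, Ctrb1, Ms4a4d, Cldn11 and Dynlrb2 were also among the largest falls. Sbpl, Tmem212, Ctrb1 and Ppy passed the filter through WT alone. Rpph1, the RNA of ribonuclease P, fell by 2.54 on the log2 scale with an adjusted p of 0.049 in limma, and leaving out any library but KO replicate 2 ended that call.

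Lists of tissue-restricted genes held more falls than rises, with these exceptions. The tuft-like, muscle-like and keratinised lists above held more rises, and those of eye and brain had 2 rises and 0 falls each. In each of the eye and brain lists 1 tested member passed the filter through KO alone and could only rise. The lists of testis and of thyroid, adrenal and pituitary had 1 rise and 1 fall each among 6 and 8 tested. Each of them, like that of stomach and intestine, held 1 member that passed through WT alone and could only fall. Over all genes tested 9.71% fell and 9.73% rose. Of the 8 tested salivary and lacrimal genes 6 fell, 0 rose and the median log2 change was -1.81, but 5 of these passed the filter through WT alone and could only fall. Islet genes fell in 4 of 10, among them Ghrl, the stomach and islet hormone ghrelin, which went from 6.51, 8.23 and 3.43 RPKM to 0.978, 0.99 and 1.19 RPKM (log2 -2.33). Liver genes fell in 4 of 14, pancreatic acinar genes in 4 of 13 with 1 rise, ciliated-cell genes in 4 of 16, neuroendocrine genes in 6 of 25 with 2 rises and ionocyte and secretory genes in 6 of 22 with 1 rise. Members that passed through WT alone are among these falls too, 3 in the neuroendocrine list, 2 in the ciliated list and 1 each in the islet, liver, acinar and ionocyte lists. The secretory mucin Muc13 fell from 3.81, 7.08 and 3.23 RPKM to 1.41, 1.44 and 1.3 RPKM (log2 -1.61). Of the 8 tested antigens that are commonly assayed in work on Aire, 5 fell, 1 of them having passed through WT alone, and 1 rose. That rise was Sag, the retinal arrestin, from 0.246, 0.32 and 0.186 RPKM to 1.39, 1.03 and 1.01 RPKM (log2 1.83, limma adjusted p = 0.00068), and Sag fell in KO mTEChi by 2.53 on the log2 scale. The falls of the assayed antigens numbered 3 without WT replicate 1 or 3 or KO replicate 1 or 3, those of liver genes 2 without WT replicate 1 or 2 or KO replicate 3, and those of acinar genes 2 without WT replicate 3.

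Genes counted as independent of Aire or linked to Fezf2, a second regulator of antigen expression in mTEC, moved both ways, with 3 rises and 4 falls among 15. Crp, the acute-phase protein used as a Fezf2-linked antigen, fell from 29.5, 28.4 and 30.2 RPKM to 8.48, 9.47 and 4.78 RPKM (limma adjusted p = 0.0006). Fezf2 was not called at 57, 63.3 and 69 RPKM in WT and 56.8, 46.5 and 40.3 RPKM in KO. The 2 groups nearly touch for Fezf2 and are widely separated for Crp.

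Genes that fell 8-fold or more in KO mTEChi number 1076 over the genes of the series-wide filter (0.1 RPKM or more in 3 or more of all 18 libraries), and 481 of them were tested in mTEClo. There 116 (24.1%) were lower and 32 (6.65%) higher in KO, beside 9.71% and 9.73% of all genes tested. Their median level was 0.518 RPKM in WT mTEClo against 4.47 RPKM in WT mTEChi, and 0.346 RPKM in KO mTEClo against 0.135 RPKM in KO mTEChi. The median log2 change of the class in mTEClo was -0.36, and 38 of its members passed the filter through WT alone.

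Interferon-stimulated genes were lower in KO mTEClo in nearly the whole list. Of 18 tested members 14 fell and 0 rose, all 18 log2 changes were below 0, and the median was -0.52 against -0.04 for all genes. Isg15, a ubiquitin-like modifier, was at 238, 266 and 258 RPKM in WT and at 140, 159 and 136 RPKM in KO (log2 -0.81, SE 0.123, limma adjusted p = 0.0005). Irf7, the transcription factor that amplifies type I interferon, was at 236, 245 and 264 RPKM in WT and at 141, 149 and 134 RPKM in KO (log2 -0.81). Ifi44 showed the largest change of the members named, from 77, 74.4 and 81.3 RPKM to 34.3, 41 and 39.6 RPKM (log2 -1.02, limma adjusted p = 0.00011). The genotypes were well separated for each of these genes, and the falls were moderate in size. Oasl2 fell by 0.51, Oas1a by 0.65 and Ifit3 by 0.78 on the log2 scale, while Cxcl10, Rsad2, Mx1 and Oas2 were not called. In KO mTEChi 15 of the 18 fell and 1 rose, with a median log2 change of -1.41. In KO cTEC 8 fell and 1 rose, with a median of -0.31. Ifit1 fell by 0.41 in mTEClo and rose by log2 0.95 in KO mTEChi (difference -1.36, limma adjusted p = 1.2e-05). The mTEClo call of Ifit1 was lost without WT replicate 1 or 3 or KO replicate 1 or 2. The number of members called lower was 9 without WT replicate 1 or 3.

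Many interferon-stimulated genes are known to carry a promoter element, the interferon-stimulated response element, searched here as GAAA, any 2 bases (NN) and GAAA in a row, on both strands, in the 250 bases before each RefSeq start site (GRCm38.p6). Of the 14 list members with a RefSeq promoter, 7 held it (50%), and of the 12 called lower 5 held it (41.7%). It was present in 3.25% of 12837 promoters of genes tested, 3.46% of all 27025 promoters in the table, 5.36% of promoters of all genes called lower and 2.63% of those called higher. Such a match describes letters and is no evidence of a bound site. The windows of 4 genes that fell and hold the element are printed with it in capitals, overlapping matches run together, and 18 bases of an annotated exon are left off in Ifit1. Isg15 lies at chr4:156200819-156201068 (minus strand), Ifit3 at chr19:34583279-34583528 (plus), Ifit1 at chr19:34640639-34640870 (plus) and Oas1a at chr5:120907526-120907775 (minus).
Isg15: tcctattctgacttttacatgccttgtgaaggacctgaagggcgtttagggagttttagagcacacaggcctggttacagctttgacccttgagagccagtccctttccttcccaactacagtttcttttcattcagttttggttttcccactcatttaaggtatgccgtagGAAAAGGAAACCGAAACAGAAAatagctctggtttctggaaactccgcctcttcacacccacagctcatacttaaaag
Ifit3: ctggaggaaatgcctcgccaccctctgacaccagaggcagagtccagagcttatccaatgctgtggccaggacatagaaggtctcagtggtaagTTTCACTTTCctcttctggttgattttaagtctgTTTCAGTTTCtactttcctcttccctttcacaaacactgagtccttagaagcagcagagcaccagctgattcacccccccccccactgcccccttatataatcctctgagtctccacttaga
Ifit1: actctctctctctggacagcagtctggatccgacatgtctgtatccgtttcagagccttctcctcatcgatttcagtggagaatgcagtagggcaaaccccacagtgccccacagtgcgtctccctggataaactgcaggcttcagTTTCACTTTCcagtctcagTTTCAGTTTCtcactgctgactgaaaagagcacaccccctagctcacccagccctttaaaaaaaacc
Oas1a: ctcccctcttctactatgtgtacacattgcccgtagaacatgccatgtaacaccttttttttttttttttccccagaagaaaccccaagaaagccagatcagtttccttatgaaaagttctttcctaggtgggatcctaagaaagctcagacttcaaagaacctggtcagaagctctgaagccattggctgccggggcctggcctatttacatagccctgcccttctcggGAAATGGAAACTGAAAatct

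Antigen presentation was lower in part. Among 11 MHC class II genes 4 fell and 0 rose, with a median log2 change of -0.32. H2-DMb2, a chain of the peptide-exchange factor, was at 127, 109 and 136 RPKM in WT and at 70.1, 82.6 and 67.5 RPKM in KO (log2 -0.76, limma adjusted p = 0.00015). Ciita, the master regulator of class II genes, was at 30.3, 26.6 and 31.8 RPKM in WT and at 22.6, 23.1 and 18.4 RPKM in KO (log2 -0.47). H2-Ab1, a class II beta chain, was at 1796, 1797 and 2058 RPKM in WT and at 1342, 1368 and 1261 RPKM in KO (log2 -0.51, limma adjusted p = 0.043), and its call was lost on leaving out any 1 of the 6 libraries (-0.54 to -0.44). In KO mTEChi 10 of these 11 genes rose and 0 fell, and 9 had effects that differed between the gates. The class II count was 2 without WT replicate 3 and 9 with centring on housekeeping genes. Of 13 MHC class I pathway genes 4 fell, with Tap1, the peptide transporter, from 108, 112 and 122 RPKM to 78.1, 83.2 and 82.3 RPKM (log2 -0.48), and the count was 1 without WT replicate 3 and 2 without WT replicate 1 or KO replicate 1 or 3.

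Genes of junctional and immature mTEC fell more often than they rose, 6 of 15 against 1, with a median of -0.31. Ly6a, a surface protein of progenitor-like cells, fell from 622, 608 and 662 RPKM to 322, 371 and 412 RPKM (log2 -0.78), and Itga6, the laminin-binding integrin of basal cells, from 160, 127 and 161 RPKM to 93.9, 101 and 94.7 RPKM (log2 -0.63). Krt5, the basal keratin, fell from 1874, 1636 and 2055 RPKM to 1310, 1412 and 1373 RPKM (log2 -0.44, limma adjusted p = 0.036), a call that held only without WT replicate 2 among the 6 sets that leave out a library. Its partner Krt14 was not called at 852, 771 and 937 RPKM in WT and 698, 774 and 728 RPKM in KO. Krt15, a keratin of basal and stem-like epithelial cells, went the other way from 13.3, 13 and 11.3 RPKM to 53.6, 59.8 and 64 RPKM (log2 2.23, SE 0.238, limma adjusted p = 5e-05), and fell in KO mTEChi by 3.36 on the log2 scale. The falls numbered 3 without WT replicate 1 or 3 or KO replicate 1, and 11 with centring on housekeeping genes.

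Of the 6 largest absolute falls, 3 were in secreted proteins. Gpx3, an extracellular glutathione peroxidase, fell from 1108, 1031 and 1224 RPKM to 408, 505 and 493 RPKM (log2 -1.26, SE 0.136, limma adjusted p = 5e-05). Mgp, the matrix Gla protein that inhibits calcification, fell from 759, 830 and 790 RPKM to 276, 307 and 298 RPKM (log2 -1.43). These 6 falls were picked among genes without overlap between the genotypes. Apoe, a lipid carrier, fell by 0.70 and Ifitm3, an interferon-induced membrane protein, by 0.48 on the log2 scale. The Ifitm3 call held only without WT replicate 2, and the Apoe call only without KO replicate 3, among the sets that leave out a library. Among the 6 largest absolute rises, outside the genes above, was Cd24a, a surface sialoglycoprotein, from 379, 463 and 269 RPKM to 591, 689 and 663 RPKM (log2 0.84, limma adjusted p = 0.032). Its call was lost on leaving out any library but WT replicate 2, as was that of Lrmp (log2 1.28).

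Chemokines and signalling genes showed smaller sets of calls. Over all genes tested 9.73% were higher and 9.71% lower, and several lists here were close to or below those shares. Partners of Aire had 4.55% called each way and mature mTEC genes 5.88% each way. Of 16 chemokines 3 fell: Ccl19, which attracts CCR7-bearing thymocytes, went from 176, 170 and 188 RPKM to 111, 101 and 67.6 RPKM (log2 -0.97), Ccl20 from 23.8, 33.4 and 17.7 RPKM to 9.04, 7.73 and 4.62 RPKM (log2 -1.80), and Ccl9 fell by 0.98. Their count was 1 without KO replicate 3, Ccl19 was also lost without WT replicate 1 or 3, and Ccl9 was lost without WT replicate 2 or KO replicate 2. Among 21 TNF and NF-kB genes 3 rose, the inhibitors Tnfaip3 (80.4, 75.7 and 75.4 to 131, 160 and 155 RPKM, log2 0.94) and Nfkbia (log2 0.60) and the subunit Rel (log2 0.83). Mature mTEC genes gave 1 rise, Il12a (log2 1.68), and 1 fall among 17. Genes of TEC identity gave 2 rises, the claudins Cldn3 (log2 1.02) and Cldn4 (log2 0.94), and 2 falls among 13. Of 18 proliferation genes only Tk1, a thymidine kinase of S phase, was called, at log2 -0.77. Of the other lists, microfold-cell genes gave 4 falls among 12, including Clu (log2 -0.44), stomach and intestine genes 1 rise and 3 falls among 19, cTEC genes 2 rises and 2 falls among 15, partners of Aire 1 and 1 among 22, and the Ctla4, Cd28 and Icos group 2 rises among 12. Foxn1, the master regulator of thymic epithelium, was not called at 25.8, 23 and 28.2 RPKM in WT and 21.8, 21.8 and 21 RPKM in KO.

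**Figure D3:**
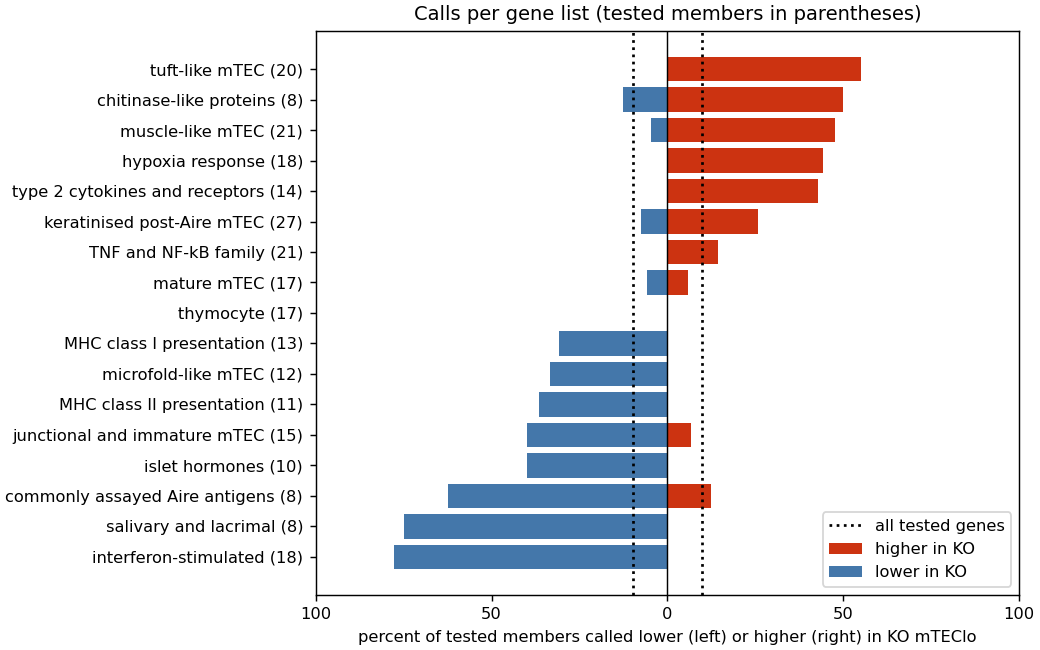
Percent of the tested members of 17 gene lists called higher (red, right) or lower (blue, left) in KO mTEClo, with the share of all tested genes (9.73% and 9.71%) as dotted lines and the number of tested members in parentheses. The tuft-like list reaches furthest to the right with 11 of 20 and the interferon-stimulated list furthest to the left with 14 of 18 among the lists drawn.

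Counts for markers of stress and of other cells are set beside the 9.73% of all tested genes that were higher and the 9.71% that were lower. Immediate early and dissociation genes gave 4 rises and 0 falls among 18, with Btg2 (log2 0.69) and Dnajb1 (log2 0.79) as examples, and the count was 2 without KO replicate 1 or 3. Housekeeping genes gave 4 rises and 0 falls among 16, including Sdha (log2 0.49) and Tfrc (log2 0.87), with 2 rises without WT replicate 3 or KO replicate 2. Macrophage and dendritic cell markers gave 2 rises and 1 fall among 19 (10.5% and 5.26%), close to or below those shares, and their summed RPKM was 73.77, 89.79 and 78.93 in WT and 122.2, 112.7 and 182.1 in KO. Lyz2, lysozyme, rose from 22.6, 28.5 and 26.5 RPKM to 70.1, 63.2 and 130 RPKM (log2 1.69). The macrophage marker Cd68 rose from 2.7, 3.34 and 3.12 RPKM to 6.66, 4.48 and 6.05 RPKM (log2 0.87, limma adjusted p = 0.0021). Emr1, Csf1r and Itgax were at 1 RPKM or less throughout. Markers of alternatively activated macrophages, the cells best known for Chi3l3, gave 3 rises among 11, namely Ear2 (log2 0.84), Mrc1 (0.78) and Mgl2 (1.40). Their count was 1 without WT replicate 3, the Mrc1 call was also lost without WT replicate 1 or KO replicate 1 or 2, and their summed RPKM was 81.26, 83.86 and 77.34 in WT and 88.21, 94.69 and 91.52 in KO. Thymocyte markers gave 0 calls among 17 in limma, and 0 at an unadjusted p under 0.05, and their summed RPKM was 29.39, 38.74 and 67.53 in WT and 56.05, 38.23 and 25.93 in KO. Of 10 B and plasma cell markers 2 rose and 3 fell, of 10 granulocyte, mast cell and eosinophil markers 1 rose and 3 fell, of 12 endothelial markers 1 rose and of 14 fibroblast and pericyte markers 2 rose and 1 fell. The part of any of these cells in the changes above was not tested.

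The genotype effect differed between the gates for many genes. In KO mTEChi 1762 of the same genes were higher (10.7%) and 7900 lower (47.8%). The effect in mTEClo was above that in mTEChi for 5691 genes (34.4%) and below it for 1080 (6.53%). This split depended on the scaling: it was 2817 and 3601 with quantile normalization, 3140 and 3590 with each library centred on its median, and 3573 and 2272 with centring on housekeeping genes. The contrasts in the 2 gates share no library, but the labels do not say whether both gates were sorted from the same mice. In WT, replicate 2 had the highest Xist and the lowest Ddx3y in both gates. KO mTEChi replicate 2 had the lowest Ddx3y but not the highest Xist. Animals shared between the gates were not modelled, so the contrasts may not be independent. Of the 1606 genes lower in KO mTEClo, 1167 (72.7%) were lower in KO mTEChi, which is 14.8% of those lower there, and 119 (7.41%) were higher. Of the 1609 genes higher in KO mTEClo, 401 (24.9%) were higher and 563 (35%) lower in KO mTEChi. The overlap of falls was 586 without WT replicate 3, 689 without WT replicate 1, 726 without KO replicate 2 and 746 without KO replicate 1. Among the gene lists, 18 of 20 tuft members and 14 of 18 interferon-stimulated members had effects that differed between the gates, and 15 of the latter also fell in KO mTEChi.

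**Figure D4:**
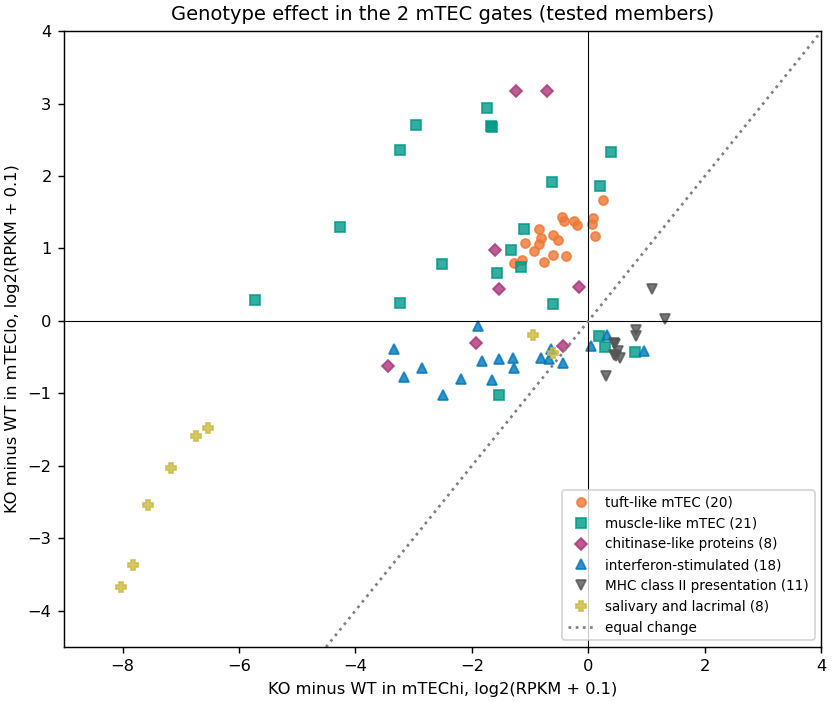
Log2 difference KO minus WT in mTEClo (vertical axis) against that in mTEChi (horizontal axis) for the tested members of 6 gene lists, 1 point per gene, with the line of equal change dotted. Tuft-like and most muscle-like members lie above 0 on the vertical axis, MHC class II members lie to the right of 0 and mostly below it, and 6 of the 8 salivary members lie far to the left and below 0.

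The libraries labelled cTEC gave another set of genotype effects. KO cTEC had 2589 genes higher (15.7%) and 1345 lower (8.13%), with 960 (59.7%) of the genes higher and 517 (32.2%) of those lower in KO mTEClo called the same way. The effect test called 148 genes (0.895%) with a higher and 701 (4.24%) with a lower effect in mTEClo than in cTEC. These cTEC libraries also held medullary transcripts: Krt5 was between 759.1 and 1054 RPKM, Aire was at 2.089, 3.945 and 7.386 RPKM in WT and at 95.61, 35.88 and 27 RPKM in KO, and the summed tuft RPKM was 103.6 to 280.9 in WT and 717.4 to 1616 in KO. Their cortical marker Psmb11 was at 10.14 to 21.76 RPKM. The part of such medullary RNA in the shared calls was not tested.

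The targeted allele may carry linked sequence of another strain, so genes near Aire are given apart. Within 5 Mb of Aire 195 genes were tested, of which 16 were higher and 20 lower (18.5%), and within 20 Mb 20.5% of 371 genes were called, beside 19.4% of all genes. Chromosomes other than Y ranged from 15.9% called (chromosome 17) to 23.6% (chromosome 1), with 21.2% on chromosome 10. Besides Dnmt3l, the named genes within 5 Mb were Shc2, an adaptor protein, which rose from 0.168, 0.249 and 0.272 RPKM to 1.18, 1.01 and 1.49 RPKM (log2 2.01), Izumo4 (log2 0.96), Gna15 (log2 0.60) and Ggt5, which fell by 0.54 on the log2 scale. Whether linked sequence bears on these values was not tested.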

How the data were processed

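RNA of 18 libraries was sequenced on an Illumina HiSeq 2000, and the submitters' processing notes name CASAVA 1.8.2 and the genome build mm10. The deposited tables give per gene an RPKM, as made by the authors, and a signal of aligned bases, which are not read counts; the latter served as depth only. For annotation and alignment, settings were not given in the sources used here. Per the deposited values, each library's bases divided by RPKM differed from those of WT mTEClo replicate 1 by 1 constant.

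RPKM were used without rescaling. The values log2(RPKM + 0.1) of genes that reached 0.1 RPKM in 3 or more of the 6 mTEClo libraries were fitted in limma 3.58.1 (R 4.3.3; lmFit, contrasts.fit, eBayes with trend) with 6 group means over all 18 libraries, and p-values were Benjamini-Hochberg adjusted over 16537 genes. The script was tested on simulated data. Fold changes of genes near 0 RPKM depend on the added 0.1. Between 9.72% and 18.8% of low base values were whole multiples of 100 bases, so reads were not recovered. Exact permutation tests (3 against 3, two-sided) served for single values.

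The members and the 45 gene lists (781 entries, 19 not in the tables) were chosen with earlier results of these data known. Named are Aire, the 12 largest rises and falls and the 6 largest absolute ones (called, no overlap between genotypes, mean of 1 RPKM or more in the higher group, no predicted, small RNA or receptor segment symbols), up to 3 called members and the highest uncalled member per list, and up to 5 genes within 5 Mb of Aire; a few further list members were chosen for the text after their values were seen. Alternatives were other pseudocounts (0.01 and 1), filters, scalings, library sets, library weights and the replicate block. Promoters and gene spans are from RefSeq GRCm38.p6 and GENCODE M21.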

Additional observations from a re-analysis of the deposited data

Results flagged for a closer look

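Results are given here where the genotype effect in mTEClo differed from that in mTEChi by limma's test of the difference. Such genes numbered 5691 with a higher and 1080 with a lower effect in mTEClo. Of the 34 genes with the largest relative or absolute changes, 23 differed in this way and 7 were called in opposite directions in the 2 gates.

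Those 7 comprise Crisp3, with a difference of log2 8.13 between its rise in mTEClo and its fall in mTEChi, Sprr4 (5.58), Ckm (4.69), Chi3l3 (4.42), Olfr148 (4.03) and Chi3l4 (3.90). H2-Ab1 alone among them fell in mTEClo and rose in mTEChi, with a difference of -1.05. Crisp3 stood at 6.25 RPKM in WT mTEChi and 0.0842 RPKM in KO mTEChi. The rises were mostly shared with KO cTEC, where Crisp3 (log2 2.90), Sprr4 (4.86), Chi3l3 (3.07), Olfr148 (2.97) and Chi3l4 (4.07) were called higher. Ckm and H2-Ab1 were not called there.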

How the results depend on the processing

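Of 115 genes followed across the alternatives 107 were called, and 79 of these kept their call under every alternative that gave a value; 1801 of 1942 recomputed values kept direction and side, 122 lost and 19 gained a call, and 0 changed sign. List medians changed sign in 21 of 747 cases, as those of TEC identity, mature mTEC, eye, brain and macrophage genes did with centring on the housekeeping list. Library weights (arrayWeights) gave 3039 genes higher, 3305 lower, an overlap with falls in mTEChi of 2489 and 1746 effects below mTEChi. Centring on the housekeeping list gave 3934 lower, an overlap of 2091, and 3573 effects above and 2272 below mTEChi. Quantile normalization gave 2817 above and 3601 below, median centring 3140 and 3590, and no filter on low values 8541 above. Without any 1 mTEClo library the counts ranged from 816 to 1655 higher and 764 to 1410 lower, with overlaps of 586 to 1001, and the difference in detected genes ranged from -83.3 to 17.7, and was 8.5 without WT replicate 2 and 16.7 without KO replicate 3; at 1 RPKM it was 106. Leaving KO cTEC replicate 1 out of the fit, chosen after seeing the data, gave 2134 higher, 2340 lower and an overlap of 1687.

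Across the tested genes, deviations of same-numbered WT and KO libraries from their group means correlated at -0.14, 0.00 and -0.06, which shows no general pairing. Xist and Ddx3y did set the libraries numbered 2 of both genotypes apart, so these correlations cannot exclude that the numbers share a source. The fit with the replicate block gave 1125 genes higher, 1027 lower and an overlap of 746.

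With 3 libraries a group, leaving out 1 mTEClo library moved the number of tuft-like members called higher between 3 and 16. Depth in reads is unknown, and genes below 0.1 RPKM were not assessed.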

Other observations

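Calls in some gene families are given here, beside 9.73% higher and 9.71% lower over all tested genes. The families were chosen after their values were seen, and some of their genes, such as Ifi44, Gbp2, Cldn3 and Cldn4, are also members of the lists above. Of 32 tested bitter taste receptor genes (Tas2r) 9 were higher in KO mTEClo and 0 lower, with a median log2 change of 1.25. Of 21 tested odorant receptor genes (Olfr, 1108 in the tables) 6 were higher and 0 lower, with a median of 0.89. Genes that passed the filter through KO alone could only rise, and their number in these receptor families is not given here. Over all genes tested 74 passed that way, of which 39 were called higher and 0 lower. Of 14 genes of guanylate-binding proteins and immunity-related GTPases 7 were lower and 1 higher, and of 21 genes whose symbols begin with Ifi 11 were lower and 1 higher. Zinc finger genes (Zfp) had 40 falls (11.7%) and 4 rises (1.17%) among 342, claudins 6 rises and 4 falls among 17, and serpins 9 falls and 2 rises among 41.

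Runs of neighbouring tested genes that were called the same way were also seen. Btg4, Pou2af1, Gm684 and 1810046K07Rik on chromosome 9 all rose. Pou2af1, a coactivator of octamer-binding factors, read 2.46, 2 and 2.58 RPKM in WT and 7.17, 5.69 and 3.62 RPKM in KO. Gm684 (Colca2 in RefSeq) read 21.4, 23.7 and 15.4 RPKM in WT and 47.9, 47.6 and 42.1 RPKM in KO. 1810046K07Rik read 39.4, 60.3 and 26.0 RPKM in WT and 97.4, 119 and 108 RPKM in KO, with the same order of the WT libraries as the tuft-like list. Its call was lost without WT replicate 1 or 3 or KO replicate 2 or 3, and that of Btg4 without WT replicate 3 or KO replicate 3. Pifo, Chia, Chi3l3, Chi3l4, BC051070 and 2010016I18Rik on chromosome 3 rose together. Dcpp1, Dcpp2, Dcpp3, Sbp and Sbpl on chromosome 17 fell together, but at least Dcpp3 and Sbpl passed the filter through WT alone. Such genes could only fall. These runs were chosen after their values were seen, and whether neighbouring genes share calls more often than others was not tested.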
